A study of Homo sapiens with 9 samples.

Results

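The subject is a set of 10 genes of mitochondrial fatty acid oxidation, measured in HepG2 cells, a line from a human liver tumour. The cells were treated with GW7647, a synthetic compound that activates PPARα, a nuclear receptor. The members were chosen by gene symbol, as every probe set that carries 1 of the 10 symbols: ACADVL, ACADM, ACADS, HADHA, HADHB, HADH, ETFA, ETFB, ETFDH and DECR1. All 10 were on the array, through 15 of the 41091 probe sets with 1 gene symbol. They make up 10 of the 19775 genes tested. HADHA and HADH had 3 probe sets each, ETFDH had 2 and the other genes had 1. Each of 3 groups had 3 arrays, namely GW7647 at 100 nM for 24 h, the same dose for 6 h, and DMSO as vehicle. The base medium, without phenol red and with 10% serum, was common to all. How long the vehicle cells were kept is not stated in the labels, so a treatment time and a culture time cannot be told apart. As a tumour line, HepG2 stands for 1 cell line and not for liver tissue.

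In the mitochondrial matrix a fatty acyl-CoA is shortened in a repeated cycle of oxidation, hydration, a further oxidation and cleavage. The first oxidation is made by acyl-CoA dehydrogenases that differ in the chain length they take. Their electrons pass to electron transfer flavoprotein, a dimer, and from there through an iron-sulphur flavoprotein of the inner membrane to ubiquinone. PPARα, which fatty acids activate, is the classical regulator of this pathway in liver, where it raises fat burning during fasting. Of the 10 genes, ACADVL, ACADM and ACADS encode the dehydrogenases for very long, medium and short chains. HADHA and HADHB encode the α and β subunits of the trifunctional protein, which carries out the later steps on long chains, and HADH encodes the dehydrogenase of the second oxidation for shorter chains. ETFA and ETFB encode the subunits of electron transfer flavoprotein, ETFDH encodes its ubiquinone oxidoreductase, and DECR1 encodes a reductase needed for unsaturated chains.

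The promoters of 3 genes that were higher at 24 h are shown because they moved together and because 1 of them is shared with a partner that was not called. Sequences are those of RefSeq on GRCh38.p14, read 5′ to 3′ along the gene's own strand, from 250 bases before to 50 bases after the annotated start. Windows were found for 8 of the 10 genes, 11 windows in all, and none was found for ETFDH or DECR1. Capitals in ETFA and ETFB mark the stretch nearest to the direct repeat that PPARα and its partner RXR are known to bind, which is AGGTCA, any 1 base and AGGTCA again, searched on both strands with up to 3 mismatches. ETFB has another annotated start, with the window chr19:51354793-51355092, which held no such stretch and is not printed. Capitals in HADHB mark the bases that also lie in the HADHA window.
ETFA, chr15:76311420-76311719, minus strand: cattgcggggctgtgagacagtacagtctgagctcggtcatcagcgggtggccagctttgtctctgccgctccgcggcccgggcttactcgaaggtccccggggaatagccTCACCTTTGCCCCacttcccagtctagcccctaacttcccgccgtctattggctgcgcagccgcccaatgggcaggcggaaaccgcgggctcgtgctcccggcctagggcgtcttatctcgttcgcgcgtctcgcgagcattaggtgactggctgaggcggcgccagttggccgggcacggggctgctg
ETFB, chr19:51366339-51366638, minus strand: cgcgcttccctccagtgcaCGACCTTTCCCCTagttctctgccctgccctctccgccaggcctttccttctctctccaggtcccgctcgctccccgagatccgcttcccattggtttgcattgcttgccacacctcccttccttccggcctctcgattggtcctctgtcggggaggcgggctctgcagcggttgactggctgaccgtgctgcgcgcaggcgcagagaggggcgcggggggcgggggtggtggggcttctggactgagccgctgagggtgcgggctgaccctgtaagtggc
HADHB, chr2:26244689-26244988, plus strand: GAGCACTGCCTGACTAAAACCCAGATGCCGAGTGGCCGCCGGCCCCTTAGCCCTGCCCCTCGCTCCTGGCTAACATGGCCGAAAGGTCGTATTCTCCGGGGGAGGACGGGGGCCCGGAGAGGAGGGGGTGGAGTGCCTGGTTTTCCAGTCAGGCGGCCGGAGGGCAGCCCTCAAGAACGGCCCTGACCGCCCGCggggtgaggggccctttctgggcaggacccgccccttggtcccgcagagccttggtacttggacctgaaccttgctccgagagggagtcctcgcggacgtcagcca

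HADHA and HADHB are transcribed in opposite directions from start sites 307 bases apart, and their windows share 194 bases. The exact repeat was in 0 of the 11 member windows and in 0.0228% of all 35116 promoter windows of the same length. The 6-letter element AGGTCA on its own was in 0 of the 11, against 13.8% of all windows. With up to 3 mismatches the repeat was in 5 of the 11 windows, against 20.9% of all. The 5 belong to ETFA, ETFB, ACADVL, ACADS and a second annotated start of HADH, so they include genes called at 24 h and genes that were not. ETFB and ACADVL each had another annotated start whose window lacked this match. In ETFA the match begins at position -139 and in ETFB at -231 from the start, in both cases on the strand opposite to the one printed. GGGCGG, a GC box, was found in 9 of the 11 windows and in 45% of all. The GC box at -248 in HADHA is the same bases as that at -64 in HADHB, so it counts for both windows. G and C made up 40.7% to 74.3% of the bases in the 11 windows, against a median of 58.7% over all windows. The part of this in the count of GC boxes was not tested. All matches given here are of letters in a short window and not mapped sites.

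After 24 h of GW7647, limma called 5 of the 10 genes higher than in vehicle and 0 lower. The count was 2 with the 6 h arrays kept out of the fit and 1 without 24 h replicate 2, and it ran from 1 to 5 over the 9 fits that left out an array. With all arrays the 5 were ETFDH, DECR1, ETFA, ETFB and HADHB, that is, all 3 genes of the electron transfer flavoprotein route, the β subunit of the trifunctional protein, and the reductase for unsaturated chains. ETFDH rose 1.57-fold (95% confidence interval 1.42 to 1.74), and the other 4 rose 1.16- to 1.21-fold. The 3 acyl-CoA dehydrogenases, HADHA and HADH did not pass the test. Among all genes, 5.38% were called higher at 24 h and 2.8% lower. By mean signal the 10 genes lay from percentile 53.1 (ETFDH) to 98.9 (ETFB) of all genes. With only the 9887 genes above the median signal tested, 1485 were called higher and 858 lower, a larger share than over all genes. Of the 10 genes, 5 were again called higher there. All 10 log2 changes were above 0, with a median of 0.20, against 51.1% above 0 and a median of 0.0034 over all genes. They stayed above 0 under every alternative run, scalings included. After 6 h, 0 of the 10 were called by limma, against 3.54% of all genes, and their log2 changes ran from -0.14 to 0.09. At an unadjusted p under 0.05, 1 of the 10 passed at 6 h and 6 at 24 h, against 16.3% and 21.2% of all genes.

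A gene was called at a Benjamini-Hochberg adjusted p under 0.05 in limma, over all 19775 genes. Signals are log2 RMA values of the gene's probe set with the highest mean, and changes are on the log2 scale ± SE of the fit, with n = 3 arrays per group. Nothing in the labels says that replicates are separate cultures, so p-values measure only the spread between these arrays, which may be technical. In such bulk RNA a change in how many cells express a gene and a change in RNA per cell cannot be told apart. The 24 h and 6 h comparisons with vehicle share the same 3 vehicle arrays. Signals of different probe sets are not comparable as levels, so only their changes are set side by side.

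**Figure D1:**
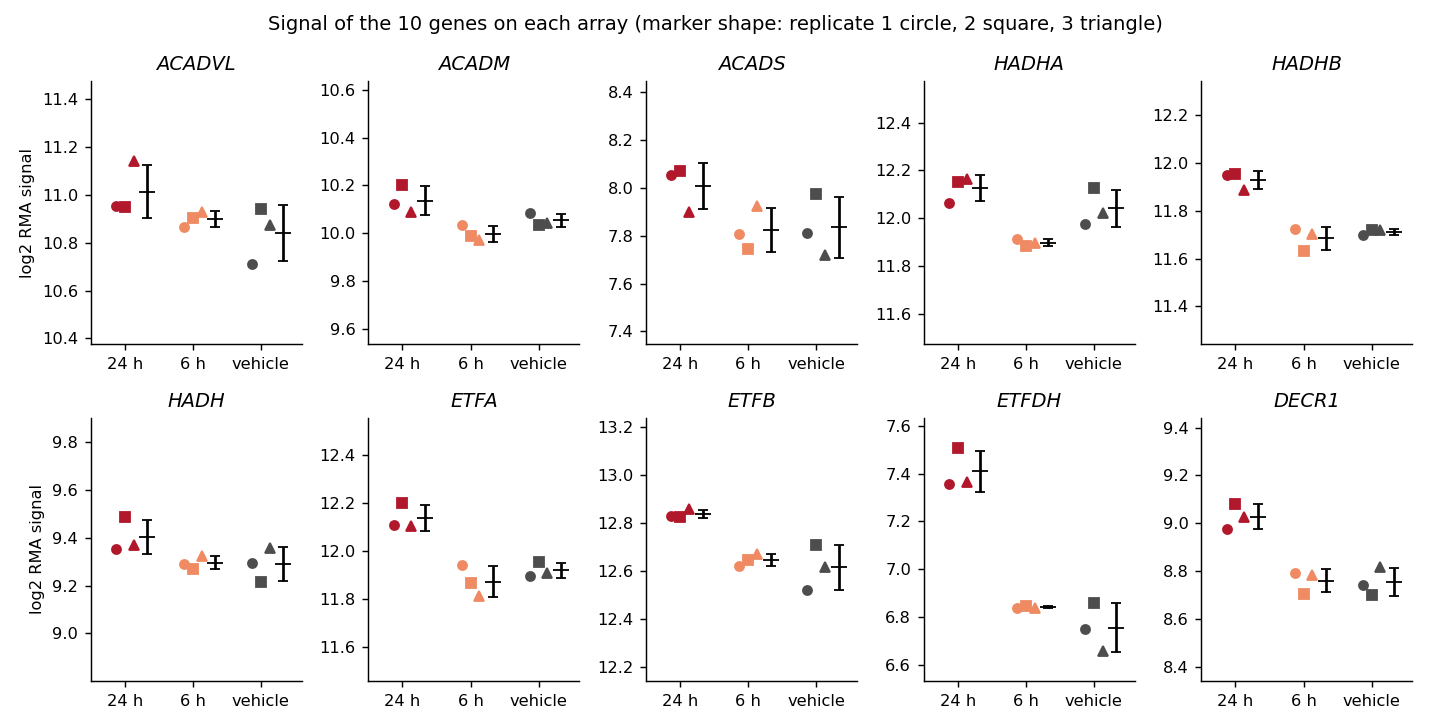
Log2 RMA signal (vertical axis) of each of the 10 genes on the 9 arrays, with 24 h left, 6 h in the middle and vehicle right in every panel. Points are arrays, black bars are the group mean and SD (n = 3), and every vertical axis spans the same log2 range. The ETFDH arrays at 24 h lie between 7.36 and 7.51, above all 6 other arrays.

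Within the electron transfer flavoprotein route, ETFDH had the largest change of the 10 genes. Its probe set 33494_at read 7.36, 7.51 and 7.37 at 24 h, 6.84, 6.85 and 6.84 at 6 h, and 6.75, 6.86 and 6.66 in vehicle. Each 24 h array was above every other array, whereas the 6 h arrays lay within the vehicle range. The change at 24 h was 0.65 ± 0.07 (adjusted p = 1.89e-04), and at 6 h it was 0.09 ± 0.07 (adjusted p = 0.582). The second probe set, 205530_at, had a lower signal, with 6.19, 6.49 and 6.51 at 24 h, 5.80, 6.02 and 5.98 at 6 h, and 5.50, 5.97 and 5.73 in vehicle. It gave a 24 h change of nearly the same size, 0.66 ± 0.12 (adjusted p = 0.00906 over the 41091 probe sets). Against 6 h, the 24 h arrays were 0.57 ± 0.07 higher by 33494_at (adjusted p = 3.08e-04). ETFDH was the 1 member whose call at 24 h against vehicle held in all 9 fits that left out an array, with an adjusted p of at most 0.00189.

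The subunits of electron transfer flavoprotein, which collects electrons from several dehydrogenases, rose by nearly equal amounts. ETFA read 12.11, 12.20 and 12.10 at 24 h, 11.94, 11.86 and 11.81 at 6 h, and 11.90, 11.95 and 11.91 in vehicle. ETFB read 12.83, 12.83 and 12.86 at 24 h, 12.62, 12.65 and 12.67 at 6 h, and 12.52, 12.71 and 12.62 in vehicle. For both genes the 24 h arrays lay above all others, and the 6 h arrays overlapped vehicle. The 24 h change was 0.22 ± 0.06 for ETFA (adjusted p = 0.0395) and 0.22 ± 0.06 for ETFB (adjusted p = 0.0407). Both calls were near the threshold. Each was lost without any 1 of 8 arrays, all but vehicle replicate 2, with adjusted p up to 0.130 for ETFA and 0.117 for ETFB, while the change itself stayed between 0.18 and 0.27. Neither passed with the 6 h arrays kept out of the fit (adjusted p = 0.0839 for ETFA and 0.107 for ETFB) or with every probe set tested on its own (0.0612 and 0.0619). Against 6 h, ETFA rose by 0.27 ± 0.06 (adjusted p = 0.0102), and ETFB had a change of 0.19 ± 0.06 (adjusted p = 0.0522). ETFB passed in that comparison without vehicle replicate 1 or 2, with an adjusted p down to 0.0256.

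DECR1, which encodes the reductase needed for unsaturated chains, had the second largest change. It read 8.98, 9.08 and 9.03 at 24 h, 8.79, 8.71 and 8.78 at 6 h, and 8.74, 8.70 and 8.82 in vehicle. The 24 h arrays stood apart from both other groups. The change was 0.27 ± 0.06 against vehicle (adjusted p = 0.0136) and 0.27 ± 0.06 against 6 h (adjusted p = 0.010). Without 24 h replicate 2 the first of these had an adjusted p of 0.0540, and without 6 h replicate 2 the other had 0.0523.

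The trifunctional protein gave a mixed picture. HADHB read 11.95, 11.95 and 11.89 at 24 h, 11.72, 11.63 and 11.70 at 6 h, and 11.70, 11.72 and 11.72 in vehicle. Its 24 h arrays were above all others and its change was 0.22 ± 0.05 (adjusted p = 0.0278). That call was lost when vehicle replicate 1 or vehicle replicate 3, or 24 h replicate 1 or 2, was left out (adjusted p up to 0.0845), and with the 6 h arrays kept out of the fit (0.0701). Against 6 h, HADHB rose by 0.24 ± 0.05 (adjusted p = 0.010), which did not pass without 6 h replicate 2 (0.0520).

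HADHA, from the other side of the same promoter region, read 12.06, 12.15 and 12.16 at 24 h, 11.91, 11.88 and 11.90 at 6 h, and 11.98, 12.13 and 12.02 in vehicle. On this probe set the 6 h arrays were the lowest of the 9, and the 24 h and vehicle arrays overlapped. Its change was 0.08 ± 0.06 at 24 h (adjusted p = 0.460) and -0.14 ± 0.06 at 6 h (adjusted p = 0.241). Against 6 h, the 24 h signal was 0.23 ± 0.06 higher (adjusted p = 0.0237), a call lost without any 1 of the 6 h arrays or 24 h replicate 2 or 3 (adjusted p up to 0.0869). The probe set read there, 208631_s_at, has an ending that marks probes shared between transcripts. The HADHA probe set without that ending, 208630_at, had a 24 h change of 0.15 ± 0.07 against vehicle and 0.18 ± 0.07 against 6 h, and passed in neither (adjusted p = 0.260 and 0.121). Its 6 h arrays overlapped vehicle, with a change of -0.03 ± 0.07 (adjusted p = 0.863), so the low 6 h signal was not seen there. The third probe set, 208629_s_at, also with shared probes, changed by -0.19 ± 0.10 at 6 h (adjusted p = 0.421). Its change at 24 h was 0.07 ± 0.10 against vehicle (adjusted p = 0.756) and 0.26 ± 0.10 against 6 h (adjusted p = 0.135).

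None of the 3 acyl-CoA dehydrogenases that open the cycle passed in any comparison. ACADM, for medium chains, read 10.12, 10.20 and 10.09 at 24 h, 10.04, 9.99 and 9.97 at 6 h, and 10.09, 10.03 and 10.04 in vehicle. The 24 h arrays were the 3 highest, by a margin that disappears on rounding, and the change was 0.08 ± 0.05 (adjusted p = 0.426). Its 95% confidence interval, not adjusted for the number of genes, ran from 0.976- to 1.15-fold. ACADVL, for very long chains, read 10.95, 10.95 and 11.14 at 24 h, 10.86, 10.90 and 10.93 at 6 h, and 10.71, 10.94 and 10.87 in vehicle. With 1 high array at 24 h and 1 low array in vehicle, its change of 0.17 ± 0.07 had an adjusted p of 0.207 and an interval of 1.01- to 1.26-fold. ACADS, for short chains, read 8.06, 8.07 and 7.90 at 24 h, 7.81, 7.74 and 7.93 at 6 h, and 7.81, 7.97 and 7.72 in vehicle. Its groups overlapped, and the change of 0.17 ± 0.08 had an adjusted p of 0.244 and an interval of 0.998- to 1.27-fold.

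HADH, which acts on medium and short chains after the trifunctional protein has dealt with long ones, overlapped between 24 h and vehicle. It read 9.35, 9.49 and 9.37 at 24 h, 9.29, 9.27 and 9.32 at 6 h, and 9.30, 9.22 and 9.36 in vehicle, a 24 h change of 0.11 ± 0.06 (adjusted p = 0.321). The other HADH probe sets gave 0.13 ± 0.08 and 0.05 ± 0.07, and 0 of the 3 passed. For none of these 5 genes does a missed threshold show that the level was equal in both groups, since the intervals reach 1.15- to 1.27-fold.

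Over all probe sets of the 10 genes, 4 of 15 were called higher at 24 h, namely both of ETFDH and those of DECR1 and HADHB, against 3.37% of the 41091 probe sets. All 15 changes were above 0. At 6 h, 0 of 15 were called, against 2.03% of all probe sets in either direction, and 6 of 15 changes were above 0. Counting arrays instead of tests, 7 of the 10 genes had all 24 h arrays above all vehicle arrays, against 14% of all genes. They were the 5 called genes with ACADVL and ACADM, which were included by small margins. The lowest 24 h array and the highest vehicle array read 10.9485 and 10.9393 for ACADVL, and 10.0867 and 10.0851 for ACADM. At 6 h, 0 genes had all treated arrays above all vehicle arrays, against 10.5% of all genes, and HADHA alone had all of them below, against 10.3%.

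**Figure D2:**
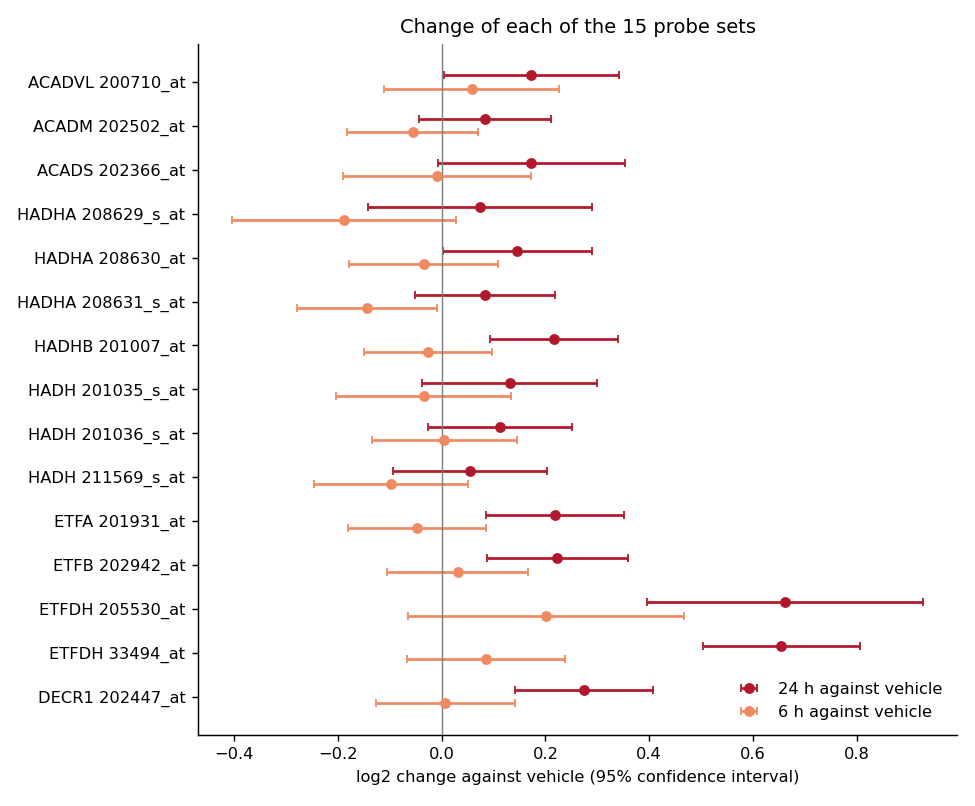
Log2 change against vehicle (horizontal axis) with its 95% confidence interval for each of the 15 probe sets (vertical axis), at 24 h (dark red, upper) and 6 h (orange, lower). Both ETFDH probe sets lie at 0.65 and 0.66 at 24 h, and the 6 h changes run from -0.19 to 0.20.

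Set directly against 6 h, the 24 h arrays had 5 of the 10 genes higher and 0 lower: ETFDH, DECR1, ETFA, HADHB and HADHA. Among all genes 9.23% were called higher and 4.57% lower in this comparison. With only the 9887 genes above the median signal tested, 2313 were called higher and 1094 lower, a larger share than over all genes. Of the 10 genes, 7 were called higher there. By probe set, 6 of 15 were called higher, against 6.2% of all. In 9 of the 10 genes, all but ACADS, every 24 h array was above every 6 h array, against 19.2% of all genes. The median log2 change of the 10 was 0.21, against -0.0097 over all genes. Leaving out 6 h replicate 2 left 2 of these calls, ETFDH and ETFA.

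**Figure D3:**
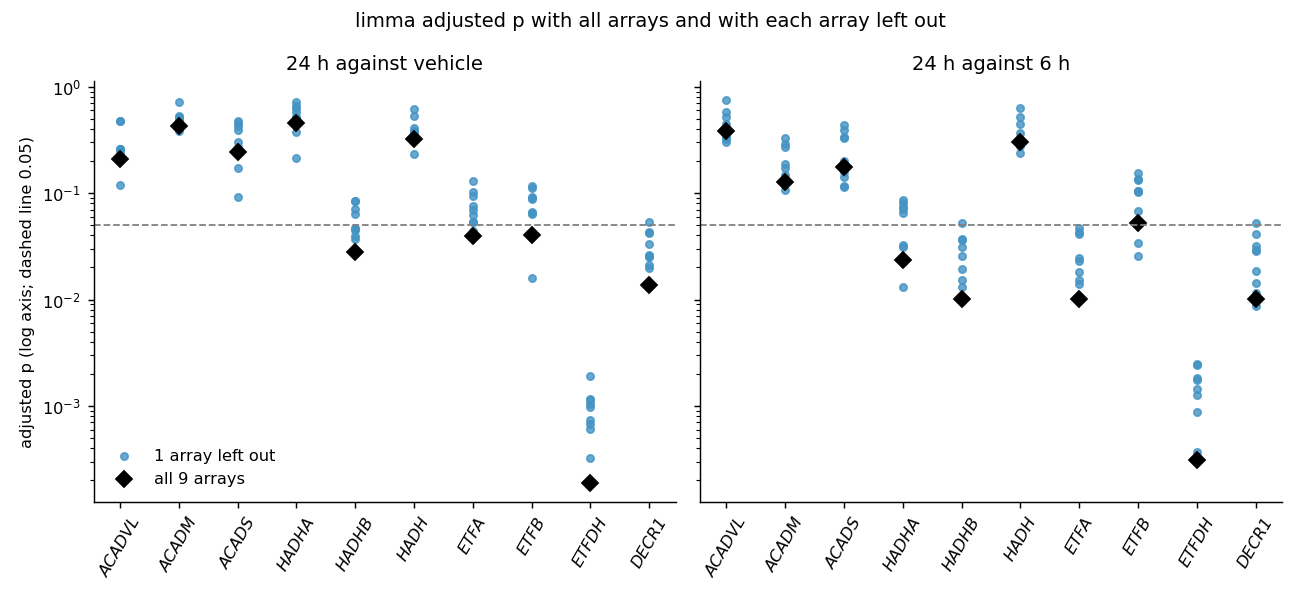
Adjusted p of limma (vertical log axis) for each of the 10 genes, for 24 h against vehicle (left) and 24 h against 6 h (right). Diamonds use all 9 arrays, dots leave out 1 array each, and the dashed line is 0.05. ETFDH stays below the line in every fit, whereas ETFA and ETFB cross it in 8 of 9 fits against vehicle.

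Partner genes were also compared with each other, by the difference of their log2 signals on each array, which asks whether they changed by the same amount. The 8 pairs were tested by an exact permutation test of the F statistic over the 3 groups, with p-values adjusted over the 8 pairs. That test asks whether the 3 group means differ at all. It names neither a direction nor the groups that differ. They were chosen with earlier results of these data known, so the p-values only describe these pairs. ETFDH rose by 0.44 log2 units more than ETFA at 24 h, with differences of 0.41 to 0.47 at 24 h, 0.06 to 0.19 at 6 h and -0.09 to 0.07 in vehicle, each relative to the vehicle mean. The exact p was 0.00714 and its adjusted value 0.0476. Against ETFB the excess of ETFDH was 0.43, with an exact p of 0.0179 and the same adjusted value. DECR1 and ACADM, which encode enzymes of different steps, had the second largest and the smallest 24 h change of the 10 genes. DECR1 rose by 0.19 more than ACADM, with an exact p of 0.0143 and again an adjusted value of 0.0476. In all 3 pairs the 24 h arrays lay apart from both other groups. An exact permutation test of the 24 h arrays against vehicle alone cannot give a p below 0.10, a value reached by each of these 3 pairs and by HADHA with HADHB. Adjusted over the 8 pairs, that p was 0.2 for each of them, so none passed for 24 h against vehicle alone.

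The other 5 pairs did not pass. ETFA and ETFB differed in their 24 h change by -0.0048, with differences of -0.06 to 0.07 at 24 h and -0.06 to 0.07 in vehicle (exact p = 0.432). The change of HADHA minus that of HADHB was -0.13 at 24 h and -0.12 at 6 h (exact p = 0.104, adjusted p = 0.207). The pairs of ACADM with ACADVL and with ACADS had -0.09 each at 24 h, and HADH against HADHA had 0.03, all with an adjusted p of at least 0.269. The 3 calls are at the edge of the threshold. None was left without vehicle replicate 2, any 1 of the 6 h arrays or 24 h replicate 2 or 3, and 2 were left without vehicle replicate 1 or 3. With 1 array left out the ETFDH excess over ETFA at 24 h stayed between 0.39 and 0.47, and that over ETFB between 0.38 and 0.48.

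**Figure D4:**
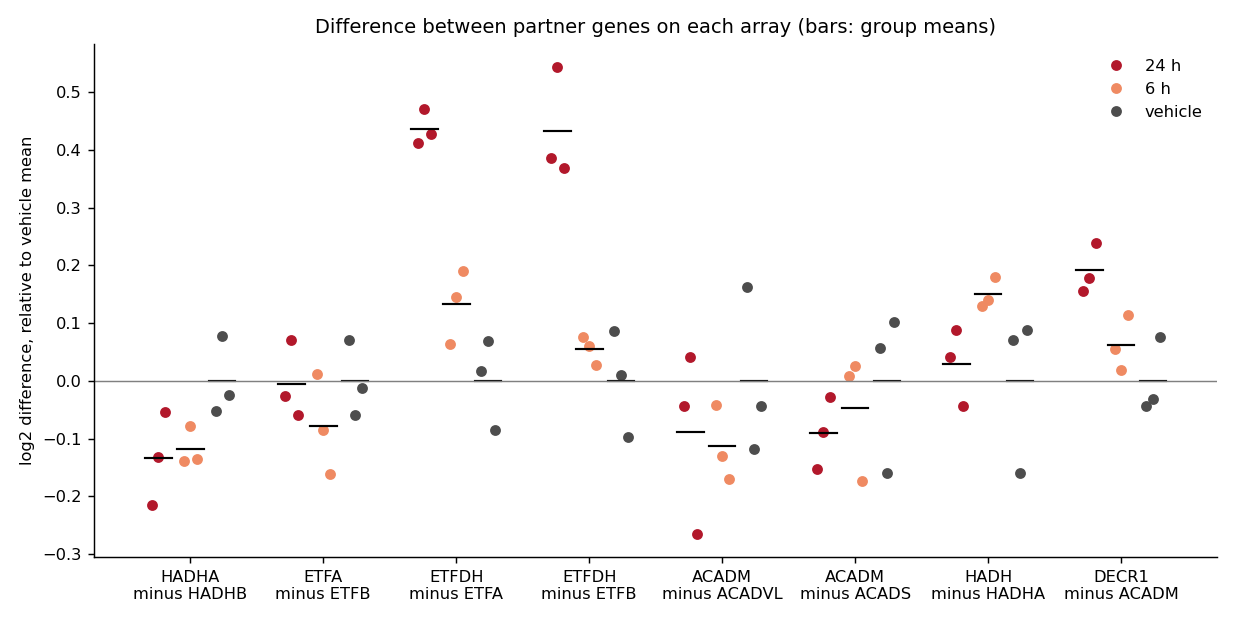
Difference of log2 signals between the genes of 8 pairs on each array (vertical axis, relative to the vehicle mean), with 24 h left, 6 h in the middle and vehicle right within each pair. Dots are arrays and bars are group means. The 24 h dots of ETFDH minus ETFA lie between 0.41 and 0.47, and those of ETFA minus ETFB between -0.06 and 0.07.

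Across the 9 arrays, each member was compared with the mean of the other 9, as a description only, since arrays of a group share their treatment. Pearson's r was 0.96 for HADHB, 0.95 for ETFDH, 0.94 for ETFA, 0.92 for DECR1 and 0.91 for ETFB. It was lower for the genes that were not called at 24 h, at 0.78 for ACADM, 0.74 for HADHA, 0.74 for ACADS, 0.70 for HADH and 0.61 for ACADVL. The 5 genes outside the pathway whose signals followed the mean of the 10 most closely, among 9877 genes above the median signal, were UPK3A, ALDH2, SLC1A5, SERP1 and PSAT1, with r from 0.99 to 0.998 over 9 arrays. Among them ALDH2 is the mitochondrial aldehyde dehydrogenase, SLC1A5 a glutamine transporter and PSAT1 an enzyme of serine synthesis. Their log2 changes were 0.14 to 0.82 at 24 h and -0.06 to -0.02 at 6 h.

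Neighbouring steps of the pathway were read from lists of related genes. Of 8 measured further β-oxidation genes, limma called 1 higher and 0 lower at 24 h, and 7 missed the threshold, with a median change of 0.12, against 5.38% of all genes higher and 2.8% lower. The one that rose was ACAA2, the thiolase that cleaves the shortened chain, at 11.61 ± 0.03 at 24 h against 11.19 ± 0.07 in vehicle (SD, n = 3), a change of 0.42 ± 0.06 (adjusted p = 0.00115). ACAA2 did not pass on a probe set without shared probes, where the change was 0.13 (adjusted p = 0.381). In the carnitine shuttle, which brings fatty acids to the matrix, 2 of 6 measured genes rose at 24 h, CPT1A by 0.77 ± 0.09 and the carrier SLC25A20 by 0.45 ± 0.06, and 0 fell, against the same shares of all genes. At 6 h SLC25A20 alone of these 6 passed, at 0.33 ± 0.06 (adjusted p = 0.00969), against 3.54% of all genes called. CPT1A also passed at 6 h with its probe sets averaged, with a change of 0.27 (adjusted p = 0.0309), and without vehicle replicate 3, with 0.33 (adjusted p = 0.0191).

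Other enzymes also hand electrons to electron transfer flavoprotein. Of 6 measured dehydrogenases of this kind, 0 were called higher, 1 was lower and 5 missed the threshold at 24 h. The shares of all genes were 5.38% higher and 2.8% lower, and the median change of the 6 was 0.0083. ACADSB, which acts on a branched short chain from isoleucine, was at 9.51 ± 0.05 at 24 h and 9.56 ± 0.09 at 6 h, against 9.85 ± 0.11 in vehicle (SD, n = 3). It fell by 0.34 ± 0.07 at 24 h (adjusted p = 0.0135) and by 0.29 ± 0.07 at 6 h (adjusted p = 0.0486). The 6 h call was lost without any 1 of 8 arrays, all but vehicle replicate 2, with adjusted p up to 0.199, and the 24 h call was lost with the probe sets averaged (adjusted p = 0.0864). Of 7 genes that supply flavin or act on electron transfer flavoprotein, limma called 0 in any comparison, with 0 at an unadjusted p under 0.05 at 24 h, 1 at 6 h and 1 at 24 h against 6 h. Of 3 measured ketone body enzymes it also called 0 in any comparison, with 0 at the unadjusted threshold at 24 h, 1 at 6 h and 2 at 24 h against 6 h. The share of all genes at that threshold was 21.2% at 24 h, 16.3% at 6 h and 25.9% at 24 h against 6 h.

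In the parallel peroxisomal pathway, 1 of 9 measured genes rose at 24 h, against 5.38% of all genes, 0 fell, and the median was 0.06. That gene was DECR2, the peroxisomal counterpart of DECR1, with 0.24 ± 0.05 (adjusted p = 0.0228), close in size to the 0.27 of DECR1. The DECR2 call was lost when vehicle replicate 1 or 3 or 24 h replicate 2 or 3 was left out (adjusted p up to 0.0719). At 6 h ACOX3, an acyl-CoA oxidase, was the gene called in this list, with a rise of 0.38 ± 0.06 (adjusted p = 0.00840), and its 24 h change was 0.01.

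**Figure D5:**
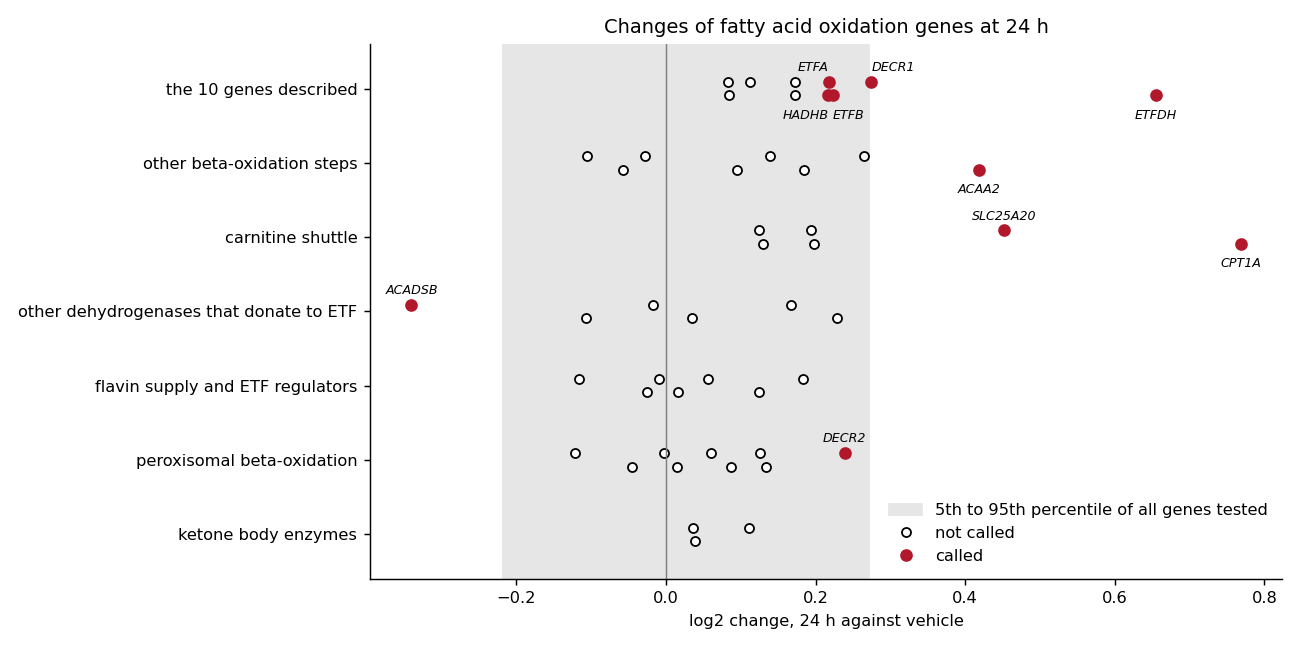
Log2 change at 24 h against vehicle (horizontal axis) of the 10 genes and of 6 lists of related genes (rows). Filled dots were called and are named, open dots were not, and the grey band runs from percentile 5 to percentile 95 of all genes tested. ETFDH, ACAA2, SLC25A20, CPT1A and DECR1 lie above the band and ACADSB below it.

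The arrays correlated at r = 0.997 to 0.999 within groups and 0.995 to 0.998 between groups across genes, which are not independent replicates. All 9 measured hepatocyte markers were above the median gene signal, and 7 of them, albumin among them, did not pass in any comparison. TTR fell by 0.55 and the fibrinogen chain FGB by 0.67 at 24 h. Of 11 measured markers of other liver cells, ACTA2 rose by 0.27 at 24 h (adjusted p = 0.00700, or 0.174 with its probe sets averaged) and 10 did not pass. The log2 of their summed linear signal was 12.26 to 12.31 at 24 h, 12.13 to 12.20 at 6 h and 12.04 to 12.19 in vehicle. The 24 h arrays were thus the highest, but the brightest markers weigh most in such a sum. ACTA2 averaged 10.9, the median marker 5.73, and 6 of the 11 lay below the median gene signal. The median 24 h change of the 11 was 0.03. The hepatocyte markers summed to 17.20 to 17.23 at 24 h, 17.19 to 17.21 at 6 h and 17.22 to 17.25 in vehicle. The 3′ minus 5′ signal of GAPDH, a sign of RNA integrity, was 0.018 to 0.022 at 24 h, 0.045 to 0.070 at 6 h and -0.0082 to 0.076 in vehicle. That of actin was 0.25 to 0.40 at 24 h, 0.27 to 0.30 at 6 h and 0.15 to 0.36 in vehicle, so its highest value was at 24 h. The part of these differences in the changes of the 10 genes was not tested.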

How the data were processed

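The deposited table held log2 signals of probe sets on 9 arrays, which were used unchanged. RMA is the method that the submitters' processing notes name; its version, the software and the chip definition are not stated there. In general RMA corrects background, brings arrays to 1 distribution and summarises probes on the log2 scale. The values ran from 2.66 to 15.0, with array medians of 5.61 to 5.68 and 0 missing.

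Groups were taken from the labels. The platform's annotation table gave 1 symbol to 41091 of 54675 probe sets, controls left out. A further 1801 had several symbols and 11721 none, and 0 symbols changed through the GRCh38.p14 gene table. Each gene was represented by its brightest probe set on average, without a filter on signal, for 19775 genes. A model with a mean per group was fitted in limma 3.58.1 (R 4.3.3, lmFit and eBayes) to all 9 arrays. Its two-sided p-values were adjusted by Benjamini-Hochberg over all genes. A second fit took each probe set as a feature. The median SE of a log2 change was 0.07, and the 3 arrays per group limit the precision. The fit and the permutation test were tested on simulated data.

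The members, the lists, the pairs and the tests were chosen with earlier results of these data known. The named genes are the 10 members, of each related list up to 4 genes called at 24 h and those called at 6 h, and the 5 other genes that correlated best with the members' mean. Results were recomputed with a block for the replicate number, with other sets of arrays, priors, filters, probe set rules, scalings and thresholds, and with each array left out. Arrays with the same replicate number gave no sign of deviating together, but so few arrays per group cannot exclude a pairing. Promoter windows came from RefSeq tables.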

Additional observations from a re-analysis of the deposited data

Results flagged for a closer look

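For 5 of the 10 genes the change after 24 h differed from that after 6 h, tested as the 24 h against 6 h term of the limma fit, and for each gene all 3 arrays at 24 h were above all 3 at 6 h. The log2 change was larger at 24 h by 0.57 for ETFDH (adjusted p = 3.08e-04), by 0.27 for DECR1 (adjusted p = 0.010), by 0.27 for ETFA (adjusted p = 0.0102), by 0.24 for HADHB (adjusted p = 0.010) and by 0.23 for HADHA (adjusted p = 0.0237). Of these, HADHA was called in neither comparison with vehicle. Groups of 3 arrays are too small to ask whether 1 array stands apart from its group.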

How the results depend on the processing

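The number of genes called at 24 h against vehicle, 5 of 10 here, was 2 with the replicate number as a block, 2 with only the compared groups, 3 without shared probes (9 genes had a value), 1 at an adjusted p under 0.01 and 1 at 1.5-fold or more, and it ran from 1 to 5 with 1 array left out. Under the block the changes of HADHB, ETFA and ETFB had adjusted p of 0.0677, 0.0734 and 0.0716, and with only the compared groups 0.0701, 0.0839 and 0.107. ETFDH and DECR1 passed in both. Same-numbered arrays gave no sign of deviating together (r = -0.20 to 0.086 over 9 pairs, against -0.24 to 0.25 over 18 pairs of different number). Of the 9 arrays, 0 were closest to their own number in both other groups. With 3 arrays per group this cannot exclude a pairing. At 24 h against 6 h the 5 calls became 1 at an adjusted p under 0.01 and 0 at 1.5-fold or more by limma, and 2 to 6 with 1 array left out. At 6 h the count was 0 under every alternative run. Of 15 probe sets, 4 at 24 h became 2 with the block and 2 to 4 with 1 array left out, and 6 against 6 h became 1 to 8. The 3 partner pairs became 0 to 3 with 1 array left out. Over all genes, 701 calls at 6 h became 427 with the block, 454 with only the compared groups, 1104 with an intensity trend and robust prior, 1206 above the median signal, 454 without shared probes, 234 at an adjusted p under 0.01, 78 at 1.5-fold or more and 261 to 637 with 1 array left out. The 1616 at 24 h became 921 with only the compared groups, 695 at an adjusted p under 0.01, 173 at 1.5-fold or more and 1005 to 1664. The 2729 at 24 h against 6 h became 1774 without shared probes, 1328 at an adjusted p under 0.01, 267 at 1.5-fold or more and 1519 to 3082. ETFA at 24 h also did not pass after quantile normalization (0.19, adjusted p = 0.0511), with array weights (0.0578) or without shared probes (0.0552), and ETFB not without shared probes (0.0555). ETFB at 24 h against 6 h passed after median centring (0.0291), with only the compared groups (0.0239) and with an intensity trend and robust prior (0.00533). It also passed there among genes above the median signal (0.0155), with probe sets averaged (0.0389) and with array weights (0.0176). With the block, after quantile normalization and without shared probes, ETFB was not called in that comparison. ACADM at 24 h against 6 h passed among genes above the median signal (0.0427). No called value changed sign under any alternative run. Of 1458 values of single genes and pairs under an alternative, 1281 kept their side of the threshold, 156 lost a call and 21 gained one; apart from fewer arrays, fewer genes or a stricter threshold, the cause was not tested.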

Other observations

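Several genes of neighbouring steps were called at 24 h against 6 h although not at 24 h against vehicle; they were chosen after their values were seen. ECI1, an isomerase for unsaturated chains, rose by 0.39 ± 0.08 log2 units (adjusted p = 0.00593), with 10.33 ± 0.02 at 24 h against 9.93 ± 0.05 at 6 h (SD, n = 3), while vehicle was at 10.06 ± 0.16. Against vehicle its 24 h change of 0.26 narrowly missed the threshold (adjusted p = 0.0577). It passed there with an intensity trend and robust prior (0.0195), among genes above the median signal (0.0204), with probe sets averaged (0.0486), with array weights (0.0392) and without vehicle replicate 2 (0.0148). SLC22A5, a carnitine importer, rose by 0.33 ± 0.08 (adjusted p = 0.0167) and missed the threshold when 24 h replicate 1, 6 h replicate 1 or 6 h replicate 2 was left out (adjusted p up to 0.0808). ACOT13, a thioesterase, and D2HGDH, a dehydrogenase that hands electrons to electron transfer flavoprotein, rose by 0.21 ± 0.06 (adjusted p = 0.0451) and 0.27 ± 0.08 (adjusted p = 0.0434). Both of these calls were near the threshold and were lost in 6 and 7 of the 9 fits that left out 1 array. Against vehicle at 24 h, both passed among genes above the median signal (adjusted p = 0.0376 for ACOT13 and 0.0454 for D2HGDH), and D2HGDH also without vehicle replicate 2 (0.0217). ACOX3 fell by 0.36 ± 0.06 between the times (adjusted p = 0.00312).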
